A study of Mus musculus with 2 samples.

Results

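ON cone bipolar cells of the mouse retina were compared between diabetic db/db and control mice by droplet single-cell RNA sequencing. Cells were selected on their own counts. A member had at least 200 detected genes, at most 20% of its unique molecular identifiers (UMIs) from mitochondrial genes, and at least 6 UMIs summed over Trpm1, Isl1, Grm6, Pcp2 and Gng13. It had at most 1 UMI of the rod bipolar genes Prkca, Car8, Vstm2b and Sebox, at most 1 UMI of the OFF genes Grik1, Gsg1, Slitrk6 and Tacr3, and under 0.5% of UMIs from 6 cone genes. This rule found 153 members among 10963 kept cells of the db/db library and 214 among 10230 kept cells of the WT library, 367 in all. The db/db mice (C57BLKS, homozygous for the db allele of the leptin receptor gene Lepr, an obese and diabetic model) and the WT mice (C57BLKS with wild-type Lepr) were 13 weeks old and untreated. Each library was 10x Genomics 3' v3.1 and held retinas of both eyes from 2 mice, with no map from cells to mice used here. Since each genotype had 1 library, genotypes could not be tested against each other and no difference has a replicate check. Intervals are at 95% and cover counting error only.

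Cone bipolar cells are interneurons that carry cone signals to the inner retina. ON types depolarise in light, because glutamate from photoreceptors acts on the receptor mGluR6, encoded by Grm6, which through a G protein closes the cation channel TRPM1. When light lowers glutamate the channel opens. The ON cone types of the mouse stratify in the inner part of the inner plexiform layer, and single genes mark several of them, among them Sox6 for type 5A, Cnmd for type 6, and Igfn1 for type 7. In diabetic rodents the inner retina is a site of early functional change.

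Members held 516443 UMIs in the db/db library and 810511 in the WT library, with medians of 3221 UMIs per db/db cell and 3502.5 per WT cell and of 1785 detected genes in db/db and 1923.5 in WT. The median mitochondrial share was 5.82% in db/db and 4.88% in WT members, and rod transcripts made up 2.12% of the summed UMIs in db/db and 2.70% in WT. The libraries shared 26 cell barcodes, of which 0 belonged to a member. At the edge of the rule, 12 db/db and 17 WT members had exactly 6 UMIs of the ON genes, and 12 db/db and 27 WT cells with 5 UMIs lay just outside it. A further 20 db/db and 29 WT cells lay outside with 2 UMIs of rod bipolar genes, against 19 db/db and 35 WT members with 1. For OFF genes, 8 db/db and 10 WT cells had 2 UMIs, against 11 db/db and 12 WT members with 1.

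The label ON cone bipolar was checked against 6 markers. Trpm1, Isl1 and Gng13 were part of the rule and are no independent check. Of the other markers, Cabp5 (a calcium-binding protein of bipolar cells) had at least 1 UMI in 55.6% of db/db and 46.3% of WT members, against 1.05% of db/db and 1.35% of WT rods. Scgn (secretagogin, a calcium sensor) was seen in 60.1% of db/db and 56.1% of WT members, against 0.528% of db/db and 0.664% of WT rods. Cck, the precursor of cholecystokinin, was seen in 19.0% of db/db and 19.6% of WT members, against 0.157% of db/db and 0.281% of WT rods. These markers set members apart from rods but not all of them from other bipolar classes. In OFF cone bipolar cells Cabp5 stood at 790 CPM (counts per 1e6 UMIs summed over the cells) in db/db and 731 CPM in WT, and in rod bipolar cells at 613 CPM in db/db and 570 CPM in WT, against 991 CPM in db/db and 675 CPM in WT members. Scgn stood at 295 CPM in db/db and 334 CPM in WT OFF cone bipolar cells, against 451 CPM in db/db and 459 CPM in WT members. Cck had 0 UMIs in OFF cone bipolar cells of both libraries. Median depth was 1897 UMIs in db/db and 2175 in WT rods, below that of members. Thinning each cell to 1500 UMIs left out 21 db/db and 33 WT members, and Scgn was then seen in 39.4% of db/db and 43.6% of WT members.

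Some members carried markers of a second class. At least 0.5% of UMIs came from a marker list of another class outside the photoreceptors in 10 of 153 db/db members (6.54%, interval 3.18 to 11.7%) and 27 of 214 WT members (12.6%, 8.48 to 17.8%). The list was that of Müller glia, the radial glia of the retina, in 10 db/db and 26 WT members. In the 1 remaining WT member it was that of microglia. Over all members the 16 Müller markers summed to 1960 CPM in db/db and 4326 CPM in WT, and 14 microglia markers to 15.5 CPM in db/db and 391 CPM in WT. For Müller markers the median per cell was 602 CPM in db/db and 771 CPM in WT. Of the microglia markers 11 were at 0 in db/db members and 1, Lyz2, was at 0 in WT members. Median UMI counts of these mixed members were 3055.5 in db/db and 3915 in WT. For amacrine, horizontal and ganglion cell markers the mixed members numbered 0 in both libraries. Rod bipolar and OFF cone bipolar genes were not among the lists used here, so unmixed members were not screened further for those classes. Values are for all members unless the text names the unmixed members, the 143 db/db and 187 WT members without these cells, an alternative chosen after the values were seen.

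**Figure D1:**
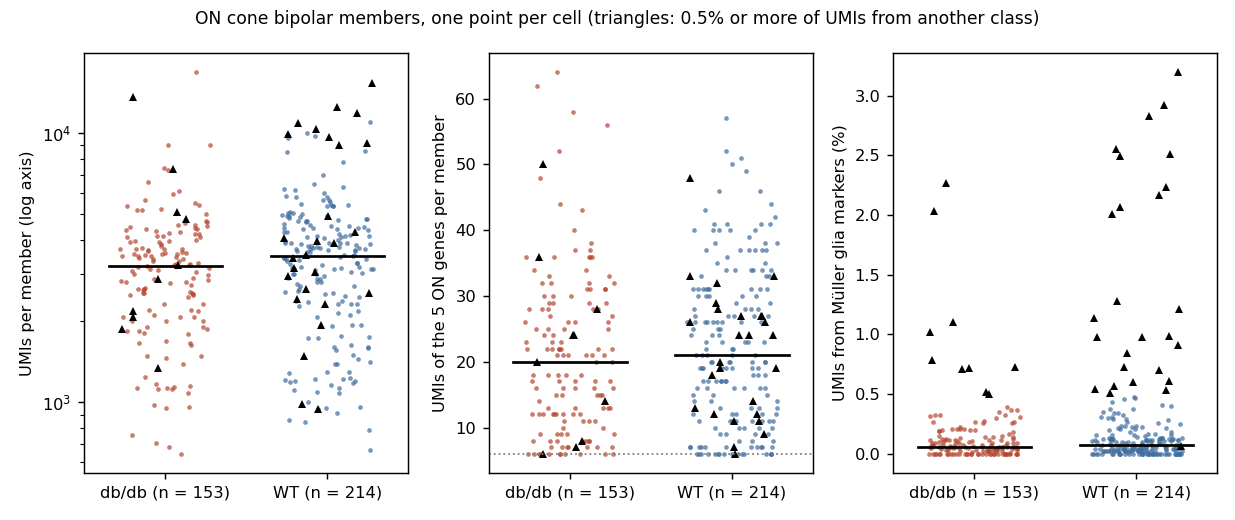
UMIs per member (left, log axis), UMIs of the 5 ON genes (middle, dotted line at the rule's minimum of 6) and the percentage of UMIs from Müller glia markers (right), with one point per cell, db/db left of WT. Lines are medians (3221 and 3502.5 UMIs, 20 and 21 ON gene UMIs). Black triangles are the 10 db/db and 27 WT members with at least 0.5% of UMIs from markers of another class, and the WT member with the most UMIs (15303) is among them. The db/db member with the most UMIs (16798) is not.

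ON cone bipolar cells made up 1.40% of kept db/db cells (1.18 to 1.63%) and 2.09% of kept WT cells (1.82 to 2.39%), a ratio of 0.667 (0.539 to 0.825). Among cells that fitted the rule of any of 3 bipolar classes they were 42.6% of 359 db/db cells (37.4 to 47.9%) and 46.1% of 464 WT cells (41.5 to 50.8%), a ratio of 0.924 (0.746 to 1.14). The interval of the first ratio lies below 1 and that of the second includes it. Rod bipolar cells numbered 98 in db/db and 147 in WT, and OFF cone bipolar cells 108 in db/db and 103 in WT. Rods were 81.1% of kept db/db and 76.6% of kept WT cells.

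Some type genes hardly met in the same members, while others overlapped. At 2 UMIs or more, Sox6, a transcription factor, was found in 42 db/db and 43 WT members. Of these, 38 in db/db and 38 in WT also had 2 or more UMIs of Cabp5. Cabp5 and Cck, found in 73 and 22 db/db members and in 81 and 38 WT members, met in 2 db/db cells and 1 WT cell. Vsx1, a homeobox gene, was found in 24 db/db and 39 WT members and met Cck in 12 db/db and 22 WT members. Igfn1, an immunoglobulin and fibronectin domain gene, was found in 9 db/db and 20 WT members. It met Vsx1 in 5 db/db and 10 WT members, and met Cck, Cabp5 or Sox6 in 0. Of the 12 db/db and 24 WT members with Cnmd, 2 in db/db and 6 in WT also had Sox6, and 2 in db/db and 6 in WT also had Cabp5. Scgn was spread over the Cabp5 and the Cck cells, with 31 and 16 db/db members and 37 and 31 WT members in common. The overlap that unrelated genes of these frequencies would have was not computed. For genes found in few members, such as Igfn1 and Cnmd, a low overlap is therefore no sign of avoidance.

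Promoters of Cabp5 and Cck are shown because these genes hardly met in the same members. The sequences are from RefSeq on GRCm38.p6 and run 5' to 3' on the gene's strand, from 250 bases before to 50 after the annotated start. That of Cabp5 is chr7:13397905-13398204 (plus strand) and that of Cck chr9:121495645-121495944 (minus strand). Capitals mark TAATCC on either strand, the core letters bound by Otx2 and Crx family homeodomain proteins.
Cabp5: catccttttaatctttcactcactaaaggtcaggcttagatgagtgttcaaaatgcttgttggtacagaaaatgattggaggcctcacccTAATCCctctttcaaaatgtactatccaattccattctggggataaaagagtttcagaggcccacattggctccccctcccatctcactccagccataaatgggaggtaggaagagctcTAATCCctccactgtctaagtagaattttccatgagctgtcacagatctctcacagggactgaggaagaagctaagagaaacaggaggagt
Cck: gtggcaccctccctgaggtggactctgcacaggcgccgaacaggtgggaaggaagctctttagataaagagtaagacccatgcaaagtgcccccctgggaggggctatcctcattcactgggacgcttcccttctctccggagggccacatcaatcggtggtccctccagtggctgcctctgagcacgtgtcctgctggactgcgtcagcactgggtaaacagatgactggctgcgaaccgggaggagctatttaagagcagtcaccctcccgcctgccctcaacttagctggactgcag
Cabp5 held 2 matches, 160 and 41 bases before the start, and Cck held 0. The letters occur in 7.06% of all 32851 RefSeq promoters of this length.

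Among the groups set by a type gene, the Sox6 group was the largest and took a larger part of the members in db/db. Unmixed members with 2 or more Sox6 UMIs and at most 1 of each other type gene numbered 37 of 143 in db/db (25.9%, 18.9 to 33.9%) and 29 of 187 in WT (15.5%, 10.6 to 21.5%). The intervals overlap. Over all members the counts were 40 of 153 in db/db (26.1%) and 37 of 214 in WT (17.3%). The same rule with Cnmd, which encodes chondromodulin, gave 9 db/db (6.29%) and 17 WT (9.09%) unmixed members, and with Igfn1 again 9 db/db and 17 WT members. Members with no UMI of any of the 8 type genes were 28.7% of db/db and 28.9% of WT unmixed members, with lower medians of 2629 UMIs in db/db and 2133 UMIs in WT. Chrm2, a type 5B gene, had 0 UMIs in both libraries, and Slitrk5, Lrrtm1, Cpne9 and Syt2 had at most 10 in either. Serpini1, another of the 8 type genes, had 26 UMIs in db/db and 43 in WT members (log2 -0.08, -0.84 to 0.66). The same rule with Serpini1 gave 4 of 153 db/db (2.61%) and 6 of 214 WT members (2.80%). With so few cells or UMIs the types of these genes were not followed. Taking 3 cells as the limit, a count of 0 allows a share of cells with a Chrm2 UMI of up to 1.96% in db/db and 1.40% in WT.

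Genes that the grouping did not use set the groups apart, described here over both libraries together. In Sox6 members Cabp5 stood at 1647 CPM, against 495 CPM in the other unmixed members. Slc8a1, a sodium-calcium exchanger, stood at 837 against 241 CPM, and Lhx4, a LIM homeobox gene of cone bipolar cells, at 660 against 218 CPM. Lmo4, a LIM-only cofactor, stood at 638 against 215 CPM and Nfia, a nuclear factor I gene, at 737 against 261 CPM. Pcsk2, a prohormone convertase, stood at 290 against 95.5 CPM. In Cnmd members Cck stood at 1343 against 234 CPM, the homeobox genes Six3 at 766 against 116 CPM and Zfhx4 at 795 against 128 CPM, and Scg2, a secretory granule protein, at 4002 against 827 CPM. In Igfn1 members the protocadherin gene Pcdh17 stood at 376 against 52.7 CPM, fibronectin (Fn1) at 612 against 132 CPM, and Reln, which encodes reelin, at 903 against 282 CPM. These genes were ranked on the same cells, so the differences carry no test.

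**Figure D2:**
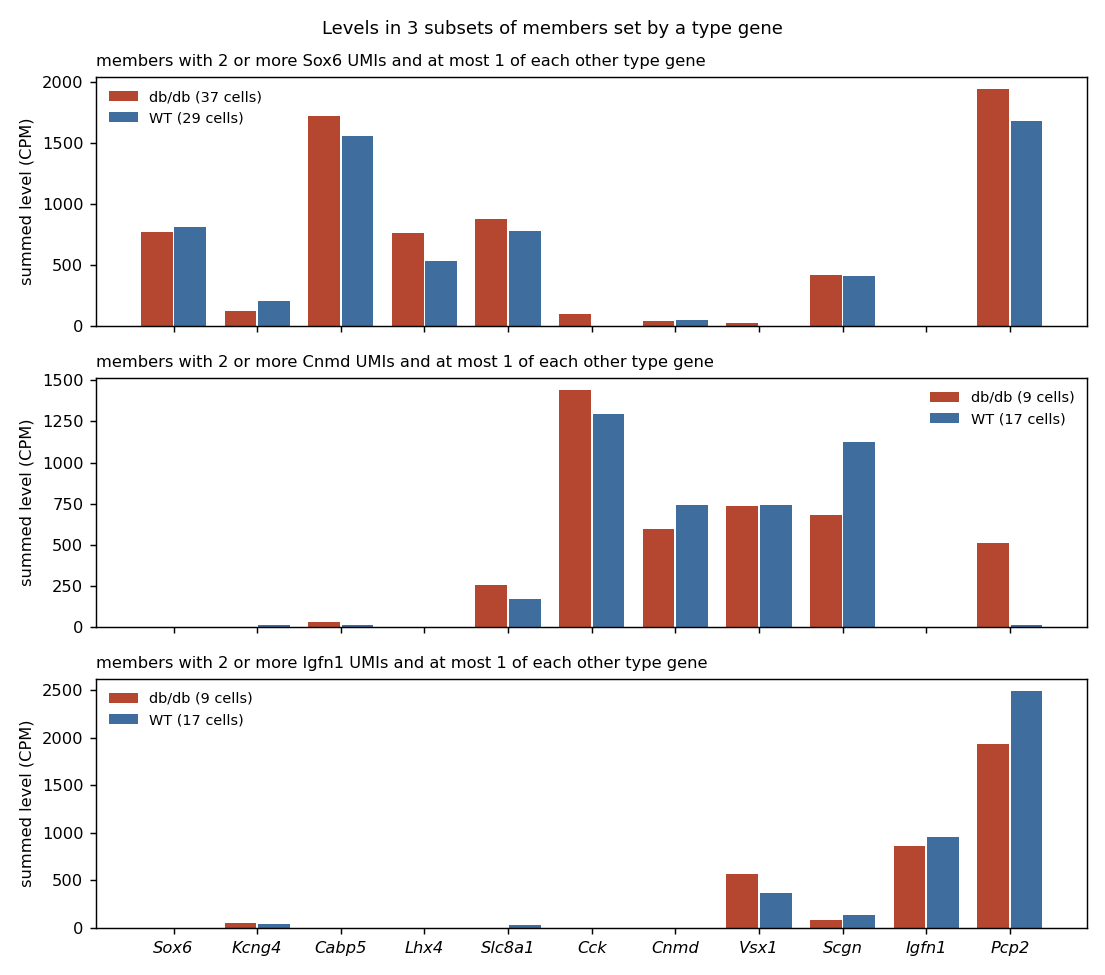
Summed level in CPM of 11 genes in unmixed members grouped by Sox6 (top, 37 db/db and 29 WT cells), Cnmd (middle, 9 and 17) or Igfn1 (bottom, 9 and 17), bars from 0, db/db left of WT. Cabp5, Lhx4 and Slc8a1 stand with Sox6, Cck and Vsx1 with Cnmd, and Vsx1 with Igfn1. In the Sox6 panel all db/db UMIs of Cck (15) and Vsx1 (4) lie in a single member, the largest of all with 16798 UMIs. Whether it holds more than 1 cell was not tested.

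Among the type genes themselves Sox6 and Cabp5 were higher and Igfn1 was lower in the db/db library. Sox6 had 150 UMIs (290 CPM) in db/db and 164 UMIs (202 CPM) in WT members, a log2 ratio of 0.52 (0.19 to 0.85). Cabp5 had 512 UMIs (991 CPM) in db/db and 547 UMIs (675 CPM) in WT, a log2 ratio of 0.55 (0.38 to 0.73). Igfn1 had 36 UMIs (69.7 CPM) in db/db and 85 UMIs (105 CPM) in WT, a log2 ratio of -0.59 (-1.19 to -0.01). Cnmd had 51 UMIs in db/db and 98 in WT (log2 -0.29, -0.81 to 0.21), Cck 161 in db/db and 268 in WT (-0.08, -0.38 to 0.20), Vsx1 104 in db/db and 151 in WT (0.11, -0.26 to 0.48) and Kcng4, a potassium channel subunit, 41 in db/db and 70 in WT (-0.12, -0.71 to 0.45). The last 4 intervals include 0. Among unmixed members the log2 ratios were 0.57 for Sox6, 0.59 for Cabp5 and -0.71 for Igfn1, each with an interval that excludes 0. In rod bipolar cells Igfn1 stood on the other side, with 52 UMIs (117 CPM) in db/db and 40 UMIs (56.4 CPM) in WT, a log2 ratio of 1.05 (0.43 to 1.68). That level lay above the members' 69.7 CPM in db/db and below their 105 CPM in WT. Igfn1 thus does not set members apart from rod bipolar cells. The difference between the classes was not tested. Per cell, Cabp5 had a median of 4.53 UMIs per 10000 in db/db and 0 in WT members, with upper quartiles of 17.1 in db/db and 11.4 in WT. Within Sox6 members alone, Cabp5 stood at 1720 CPM in db/db and 1556 CPM in WT, a log2 ratio of 0.14 (-0.13 to 0.42).

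A total of 5089 genes had at least 50 UMIs over the members of both libraries and count as measured. Their median log2 ratio was 0.01. At a log2 ratio of 1 or more stood 24 genes, 0.472% of those measured, and at -1 or less stood 89, or 1.75%. In unmixed members 4431 genes were measured, of which 20 stood at 1 or more and 26 at -1 or less. Of the 89 lower genes 35 stood at -1 or less in unmixed members too, and 14 of these were measured there. Of the 24 higher genes 20 still stood at 1 or more. Genes were named by a fixed rule, the 12 with the farthest interval bound on each side.

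Several of the 12 genes with the lowest ratios over all members had most of their UMIs in the mixed cells. The chemokine genes Ccl4 and Ccl3 together had 1 UMI in db/db members, against 382 of Ccl4 and 147 of Ccl3 in WT members, and the protease gene Ctss had 0 in db/db and 78 in WT. In WT, 381 of the Ccl4, 146 of the Ccl3 and 78 of the Ctss UMIs lay in 1 cell. The water channel gene Aqp4 had 16 UMIs in db/db and 160 in WT members, and 1 in db/db and 16 in WT unmixed members. The glutamate transporter gene Slc1a3 had 13 UMIs in db/db and 126 in WT members, and 2 in db/db and 11 in WT unmixed members. Dnajb1, a heat shock cochaperone, had 9 UMIs in db/db and 88 in WT members, and 7 in db/db and 26 in WT unmixed members. Kdr, Ccn2, Cd9, Sparc, Abca8a and Zfp36 made up the 12, and 0 of the 12 were among the 12 lowest in unmixed members. That count is no test of whether the differences remain. Aqp4, Slc1a3, Ctss and Kdr are on marker lists that helped to define the unmixed set. Aqp4, Slc1a3 and Dnajb1 also had too few UMIs there to count as measured. In unmixed members 6 of the 12 still had a log2 ratio below 0, of which 4 stood at -1 or less. Kdr stood above 0 there. The rest are not thereby shown to have lost their direction. Ctss, for example, had no UMIs left, since all 78 in WT lay in 1 mixed cell.

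The higher genes included several of the Sox6 group. Pcsk2 (chr2:143546156-143816285, GRCm38 as for the other positions) had 113 UMIs (219 CPM) in db/db and 76 UMIs (93.8 CPM) in WT members, a log2 ratio of 1.22 (0.79 to 1.66). It was seen in 43.1% of db/db and 25.7% of WT members, against 0.888% of db/db and 1.69% of WT rods. Htr3a (chr9:48899213-48911099), the serotonin receptor channel known in type 5 cone bipolar cells, had 35 UMIs (67.8 CPM) in db/db and 21 UMIs (25.9 CPM) in WT, a log2 ratio of 1.39 (0.57 to 2.24). Lhx4 (chr1:155698031-155751684) had 224 UMIs (434 CPM) in db/db and 211 UMIs (260 CPM) in WT, a log2 ratio of 0.74 (0.46 to 1.01). Slc8a1 (chr17:81373105-81738377) had 249 UMIs (482 CPM) in db/db and 242 UMIs (299 CPM) in WT, a log2 ratio of 0.69 (0.43 to 0.95). All 4 kept their sign under every alternative run, with ranges of 0.97 to 1.36 for Pcsk2, 0.84 to 1.49 for Htr3a, 0.62 to 0.84 for Lhx4 and 0.56 to 0.87 for Slc8a1. Within unmixed Sox6 members Pcsk2 stood at 341 CPM in db/db and 225 CPM in WT (log2 0.60, -0.09 to 1.33), Lhx4 at 761 CPM in db/db and 532 CPM in WT (0.52, 0.06 to 0.98) and Slc8a1 at 880 CPM in db/db and 782 CPM in WT (0.17, -0.22 to 0.57). Htr3a there had 20 UMIs in db/db and 5 in WT, a log2 ratio of 1.66 (0.20 to 3.43). The part that the larger share of Sox6 members took in these ratios was not tested.

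The remaining high genes were of several kinds. AC149090.1, a gene annotated on an unplaced scaffold (JH584304.1), had 420 UMIs (813 CPM) in db/db and 231 UMIs (285 CPM) in WT members, a log2 ratio of 1.51 (1.28 to 1.75). It was seen in 84.3% of db/db and 59.8% of WT members and in 19.3% of db/db and 6.72% of WT rods. Its log2 ratio was 1.53 (0.99 to 2.11) in Sox6, 1.07 (0.03 to 2.12) in Cnmd and 1.18 (0.51 to 1.85) in Igfn1 members, and 1.32 in rod bipolar and 1.26 in OFF cone bipolar cells. Reads that it may share with near-identical copies were not examined. Fndc1, a fibronectin domain gene, had 49 UMIs in db/db and 26 in WT (log2 1.56, 0.85 to 2.31), of which 26 in db/db and 5 in WT lay in unmixed Sox6 members. Cd59a, a complement inhibitor, had 47 UMIs in db/db and 32 in WT (1.20, 0.53 to 1.90) but was seen in 16.5% of db/db and 16.4% of WT rods too. BC046251, Tle2, Pcif1, Eef1akmt2 and Zfp994 had 67 UMIs or fewer in either library and log2 ratios between 1.02 and 1.36.

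**Figure D3:**
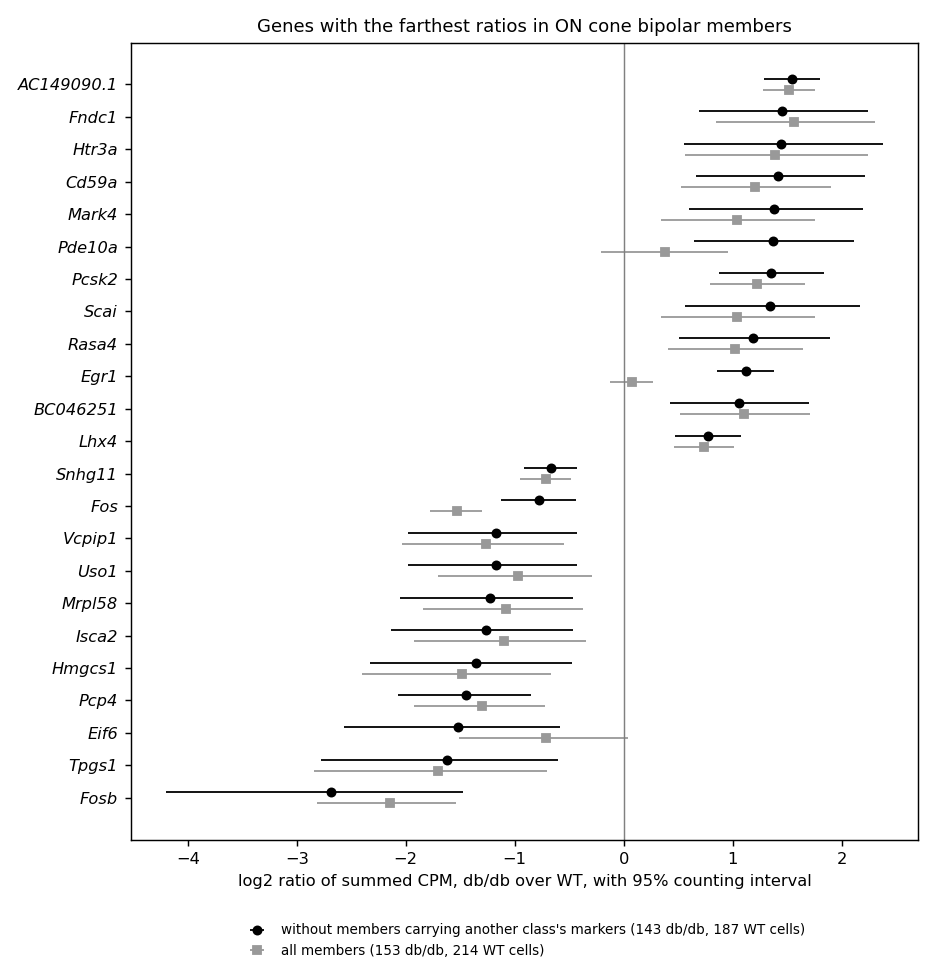
Log2 ratio of db/db over WT, with 95% counting interval, of the 12 highest and 11 of the 12 lowest genes named in the 143 db/db and 187 WT unmixed members (black circles), beside the value over all 153 and 214 members (grey squares). Egr1, Pde10a and Eif6 move most between the sets, while AC149090.1, Pcsk2, Lhx4 and Snhg11 stay close.

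In unmixed members the genes with the lowest ratios were of other kinds. Pcp4, which encodes a small neuronal peptide, had 31 UMIs in db/db and 120 in WT members, a log2 ratio of -1.30 (-1.92 to -0.72), with a range of -0.12 with no limit on the mitochondrial share to -3.71 after thinning. It was seen in 7.84% of db/db and 17.3% of WT members, against 4.18% of db/db and 4.83% of WT rods. Most of these UMIs lay in few cells. Unmixed members with 2 or more Pcp4 UMIs numbered 5 in db/db and 15 in WT, with medians of 1117 UMIs in db/db and 1741 in WT, and held 24 of the Pcp4 UMIs in db/db and 96 in WT. In those cells Pcp4 stood at 3303 CPM in db/db and 2597 CPM in WT. The other unmixed members stood at 12.9 CPM in db/db and 28.9 CPM in WT. In rod bipolar cells Pcp4 stood at 3221 CPM in db/db and 2669 CPM in WT. Whether the members with Pcp4 belong to that class was not tested.

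Snhg11, a host gene of small nucleolar RNAs, had 211 UMIs (409 CPM) in db/db and 544 UMIs (671 CPM) in WT members, a log2 ratio of -0.72 (-0.95 to -0.48). The ratio was -0.67 in unmixed members, -0.94 in OFF cone bipolar cells and -2.59 in rods. Among unmixed members it was -1.20 (-1.74 to -0.68) in the Sox6 group and -0.75 (-1.31 to -0.22) in the Igfn1 group. In members with no type gene it was -0.24 (-0.88 to 0.39), and Cnmd members had 7 UMIs in db/db and 8 in WT. Over both libraries Snhg11 stood at 1506 CPM in Igfn1 members, against 489 CPM in the other unmixed members. The part that group shares took in the ratio was not tested. Hmgcs1, the HMG-CoA synthase of cholesterol synthesis, had 15 UMIs in db/db and 66 in WT (log2 -1.49, -2.40 to -0.66). Tpgs1, Eif6, Mrpl58, Isca2, Uso1 and Vcpip1 had 24 UMIs or fewer in db/db and 79 or fewer in WT members. Each of these 6 was seen in over 10% of rods in both libraries.

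Immediate early genes, which neurons and glia transcribe within minutes of stimulation, were lower in db/db members, less so without the mixed cells. Of 15 measured genes 14 were lower and 10 stood at -1 or less, with a median log2 ratio of -1.33. Over all 5089 measured genes 2479 were lower, 1.75% stood at -1 or less and the median was 0.01. In unmixed members 8 were still measured, of which 5 were lower, and the median over these was -0.31. Fosb, an AP-1 subunit, had 25 UMIs in db/db and 174 in WT members (log2 -2.15, -2.82 to -1.54), and 6 in db/db and 54 in WT unmixed members (-2.69, -4.20 to -1.47). It was seen in 5 of 143 db/db and 32 of 187 WT unmixed members. Over all members the share was 3.92% in db/db and 19.6% in WT, against 4.38% of db/db and 9.69% of WT rods, so the db/db share was at the level of rods. Fos, its homologue, had 176 UMIs in db/db and 800 in WT (-1.53, -1.78 to -1.30), and 101 in db/db and 242 in WT unmixed members (-0.78, -1.13 to -0.44). A single db/db member held 71 Fos UMIs and a single WT member 130. Jun had 21 UMIs in db/db and 63 in WT in unmixed members (-1.10, -1.89 to -0.37).

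Egr1, a zinc finger gene of the same list, was higher in db/db in unmixed members. It had 345 UMIs in db/db and 515 in WT members (log2 0.07, -0.13 to 0.27), but 314 UMIs (665 CPM) in db/db and 202 UMIs (306 CPM) in WT unmixed members (1.12, 0.86 to 1.38). It was seen in 82 of 143 db/db and 72 of 187 WT members of that set. Within unmixed Sox6 members Egr1 had 122 UMIs in db/db and 78 in WT (0.30, -0.12 to 0.73). The log2 ratio was 1.61 (0.91 to 2.35) in members with no type gene and 1.21 (0.01 to 2.43) in Igfn1 members. Cnmd members had 8 Egr1 UMIs in db/db and 4 in WT. Among all WT members 1 cell held 75 Egr1 UMIs. Over all members the log2 ratio was 1.05 without the 8% of members with the most UMIs, 0.52 after thinning and 0.45 with equal weight per cell. In rod bipolar cells Egr1 had 21 UMIs in db/db and 113 in WT (-1.76, -2.50 to -1.08) and in OFF cone bipolar cells 105 in db/db and 222 in WT (-1.30, -1.65 to -0.96). Fos was lower in both, at -1.06 in rod bipolar and -0.78 in OFF cone bipolar cells, as was Fosb, at -2.50 in rod bipolar and -0.75 in OFF cone bipolar cells. The list's median was -0.91 over 13 measured genes in rod bipolar and -0.95 over 12 in OFF cone bipolar cells. Mixed cells were not taken out of those classes, where Müller markers summed to 474 CPM in db/db and 1263 CPM in WT rod bipolar cells and to 4130 CPM in db/db and 5080 CPM in WT OFF cone bipolar cells.

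Promoters of Fos and Fosb are shown because the genes were lower together in the 3 bipolar classes. They lie at chr12:85473640-85473939 (plus strand) and chr7:19309996-19310295 (minus strand) of GRCm38.p6, from RefSeq, in the same window and direction as above. Capitals mark TGACG on either strand, the core letters of the cAMP response element.
Fos: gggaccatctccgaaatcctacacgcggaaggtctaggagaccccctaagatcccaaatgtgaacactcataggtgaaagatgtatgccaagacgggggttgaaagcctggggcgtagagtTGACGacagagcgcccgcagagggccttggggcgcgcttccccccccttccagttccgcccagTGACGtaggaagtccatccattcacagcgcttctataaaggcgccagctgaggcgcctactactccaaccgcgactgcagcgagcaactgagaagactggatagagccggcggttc
Fosb: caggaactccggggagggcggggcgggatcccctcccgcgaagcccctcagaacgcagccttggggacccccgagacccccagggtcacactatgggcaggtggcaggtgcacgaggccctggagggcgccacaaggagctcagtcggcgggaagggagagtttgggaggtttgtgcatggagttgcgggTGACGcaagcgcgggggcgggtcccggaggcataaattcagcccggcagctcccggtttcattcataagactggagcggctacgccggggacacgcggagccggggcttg
Fos held 2 matches, 129 and 66 bases before the start, and Fosb held 1, at 60 bases. The letters occur in 20.8% of all RefSeq promoters of this length.

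**Figure D4:**
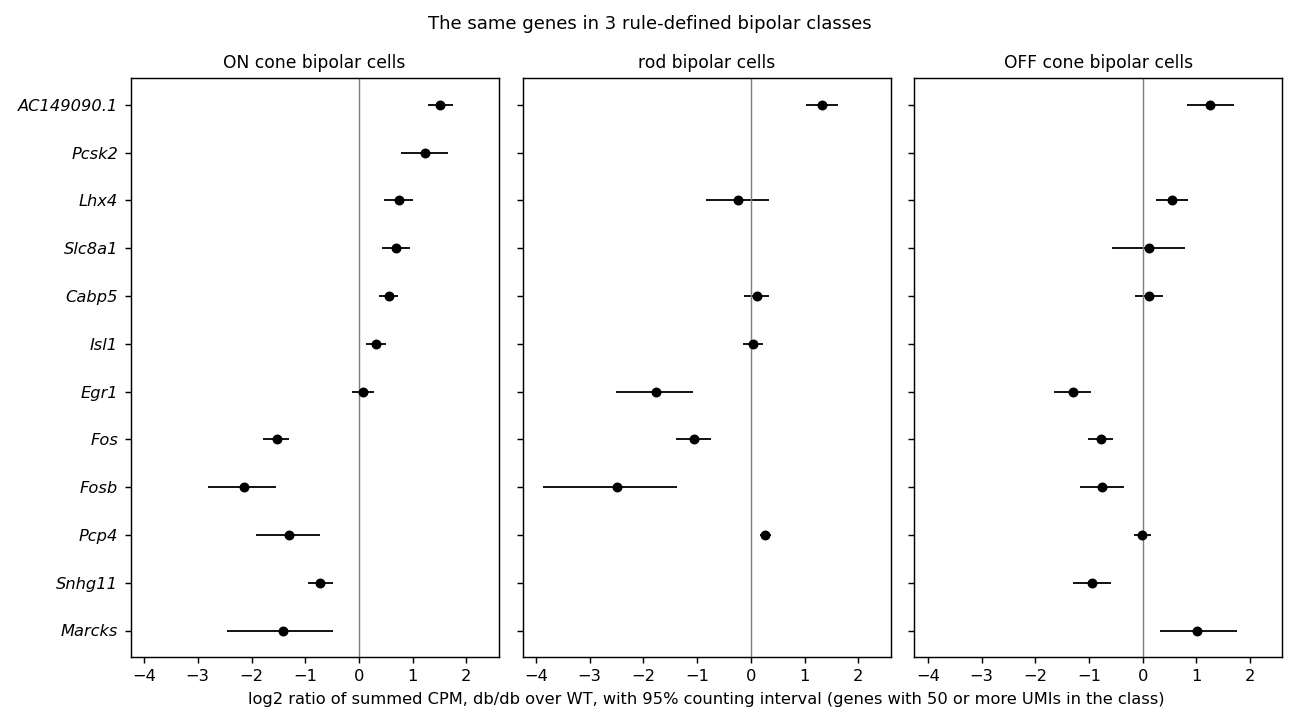
Log2 ratio of db/db over WT with 95% counting interval for 12 genes in ON cone bipolar (153 db/db and 214 WT cells), rod bipolar (98 and 147) and OFF cone bipolar cells (108 and 103), drawn where a gene had at least 50 UMIs in the class. AC149090.1 is high in the 3 classes (1.51, 1.32 and 1.26), Fos is low in each, and Marcks stands on opposite sides in ON and OFF cone bipolar cells.

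Genes of the ON light response cascade stood on both sides of 0. Of 13 measured genes 8 were higher and 5 lower, with a median log2 ratio of 0.08 over all and -0.06 over unmixed members, so the sign of the median depends on the set. Grm6, the receptor, had 142 UMIs (275 CPM) in db/db and 244 UMIs (301 CPM) in WT members. Trpm1, the channel, had 761 UMIs (1474 CPM) in db/db and 1131 UMIs (1395 CPM) in WT. Both genes, like Gng13 and Pcp2, helped to select the cells. Without these 4 genes, 6 of 9 measured were higher and 3 lower with a median of 0.09, and in unmixed members 3 of 8 were higher and 5 lower with a median of -0.07. Gnao1, the G protein alpha subunit, had 416 UMIs in db/db and 586 in WT (log2 0.16, -0.03 to 0.34), and Gnb3, its beta subunit, 562 in db/db and 904 in WT (-0.04, -0.19 to 0.12). Nyx, which encodes the synaptic scaffold protein nyctalopin, had 67 UMIs (130 CPM) in db/db and 67 UMIs (82.7 CPM) in WT (0.65, 0.14 to 1.16). Gpr179, an orphan receptor that anchors regulators of the cascade, had 231 UMIs in db/db and 271 in WT (0.42, 0.16 to 0.68). In unmixed members Nyx was at 0.58 and Gpr179 at 0.29.

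More transcription factors of bipolar cells were higher than lower. Of 18 measured 13 were higher and 5 lower, with a median of 0.22, and in unmixed members 12 were higher and 6 lower with a median of 0.20, against 2610 of all 5089 measured genes that were higher. Without Isl1, which helped to select the cells, 12 of 17 were higher with a median of 0.20, and in unmixed members 11 of 17 with a median of 0.17. With Isl1, 11 of 15 were higher in OFF cone bipolar (median 0.13) and 7 of 13 in rod bipolar cells (0.01). In rods 14 of 19 were lower (-0.44). Isl1 had 430 UMIs in db/db and 540 in WT (log2 0.32, 0.14 to 0.51). Otx2 had 299 UMIs in db/db and 408 in WT (0.20, -0.02 to 0.42) and Neurod4, a basic helix-loop-helix factor, 398 in db/db and 526 in WT (0.25, 0.06 to 0.44). Zfhx4, one of the Cnmd group's genes, had 66 UMIs in db/db and 149 in WT in unmixed members, a log2 ratio of -0.69 (-1.13 to -0.27).

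Inhibitory receptor and ion transport genes showed small differences. Of 10 measured GABA and glycine receptor list genes 8 were higher and 2 lower (median 0.20, and 0.13 in unmixed members). Higher too were 8 of 10 in OFF cone bipolar (median 0.36) and 5 of 7 in rod bipolar cells (0.29). In rods 13 of 15 were lower (-0.66). Gabrr2, a GABA receptor subunit of the rho type, had 197 UMIs in db/db and 227 in WT members (log2 0.45, 0.16 to 0.73). Of 19 ion channel and pump genes 9 were higher and 10 lower (median -0.03, and -0.08 in unmixed members). Of 24 ribbon synapse and vesicle release genes 12 were higher and 12 lower (median 0.01, and -0.04 in unmixed members), and of 21 synaptic adhesion and guidance genes 12 were higher and 9 lower (median 0.09, and 0.06 in unmixed members).

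Genes of energy metabolism lay near the median of all genes. Of 72 nuclear-encoded respiratory genes 33 were higher and 39 lower (median -0.02), of 25 glycolysis and lactate genes 14 and 11 (0.07), and of 14 citric acid cycle genes 6 and 8 (-0.02). In unmixed members the medians were -0.06 for respiratory, 0.07 for glycolysis and -0.04 for citric acid cycle genes. Mitochondrially encoded genes leaned higher, 11 of 13, with a median of 0.21 and of 0.14 in unmixed members. The rule limits their summed share to 20% of UMIs, so they helped to select the cells. mt-Co3, a subunit of cytochrome oxidase, had 5826 UMIs in db/db and 6694 in WT members (log2 0.45, 0.40 to 0.50), and 0.54 and 0.35 were its log2 ratios in rod bipolar and OFF cone bipolar cells. Cytosolic ribosomal protein genes leaned lower, 62 of 80, with a median of -0.11, and 63 of 80 with a median of -0.14 in unmixed members. They were also lower in 77 of 80 in rods (median -0.18) and 57 of 80 in rod bipolar cells (-0.09). In OFF cone bipolar cells 41 of 78 were lower (-0.01). Of 8 polyol, hexosamine and glyoxalase genes 8 were higher (median 0.14), but 2 of 8 were lower in unmixed members, and each interval includes 0. Of 13 insulin and leptin signalling genes 8 were higher (median 0.08, and 0.13 in unmixed members), and Insr, the insulin receptor, had 31 UMIs in db/db and 62 in WT (-0.35, -1.02 to 0.29). Lepr had 0 UMIs in db/db and 1 in WT members, and its 3' tag count does not check the mutation.

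Genes of the unfolded protein and integrated stress responses leaned lower. Of 14 measured 12 were lower, with a median of -0.36, and 10 of 12 with a median of -0.33 in unmixed members. Over all 5089 measured genes 2479 were lower. The list leaned lower in the other classes too. Lower were 11 of 13 in rod bipolar cells (median -0.19), 8 of 11 in OFF cone bipolar cells (-0.12) and 18 of 22 in rods (-0.10). Atf4, the stress transcription factor, had 83 UMIs in db/db and 201 in WT members (log2 -0.63, -1.01 to -0.25), Ddit3 33 in db/db and 92 in WT (-0.83, -1.45 to -0.24), and the chaperone gene Hsp90b1 252 in db/db and 472 in WT (-0.26, -0.48 to -0.03). In rod bipolar cells Atf4 was at -0.19 and Ddit3 at -0.15, with intervals that include 0, and in OFF cone bipolar cells Atf4 was at -0.34 (-0.79 to 0.11) and Ddit3 at -0.98 (-1.56 to -0.42). Of 15 heat shock chaperones 11 were lower, where the median was -0.02 but the mean -0.40, and in unmixed members 7 of 12 were lower with a median of -0.09 and a mean of -0.08. Hsp90aa1, a cytosolic chaperone, had 1180 UMIs in db/db and 2464 in WT (-0.41, -0.51 to -0.31), and its ratio was -0.46 in unmixed members. Rod markers, which bipolar cells should lack, were lower too, 25 of 28 with a median of -0.32, and 27 of 28 with a median of -0.43 in unmixed members. Their summed level was 21245 CPM in db/db and 27021 CPM in WT members. Rcvrn, which is on the calcium-binding list and a rod marker, had 342 UMIs in db/db and 857 in WT (-0.68, -0.86 to -0.49). The part of rod transcripts in the other lists' ratios was not tested.

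**Figure D5:**
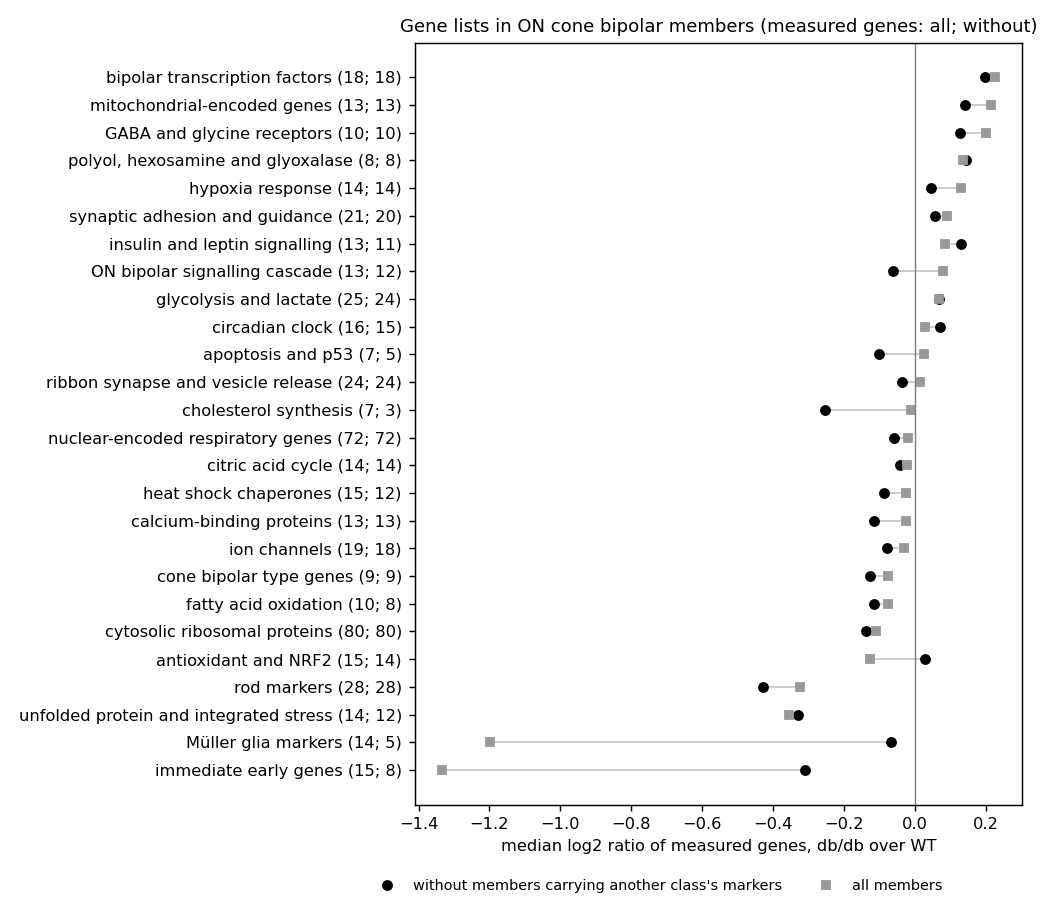
Median log2 ratio of db/db over WT for gene lists with at least 7 measured genes, over all members (grey squares) and unmixed members (black circles), with the number of measured genes in each. Immediate early genes (-1.33 and -0.31) and Müller markers (-1.20 and -0.07) move most between the sets, while the unfolded protein and integrated stress list (-0.36 and -0.33) and the transcription factors (0.22 and 0.20) stay in place. Müller markers helped to define the unmixed set, so their move is no test. The medians also cover fewer genes there, 8 against 15 for immediate early genes and 5 against 14 for Müller markers.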

How the data were processed

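Retinas of db/db and WT mice were profiled in 1 10x Genomics 3' v3.1 library per genotype. Per the file headers, the authors deposited raw UMI counts per gene and barcode from cellranger 6.0.1. The submitters' processing notes name Cell Ranger and mm10. Which annotation release and cell calling were applied, and whether strand was used, is not given in the sources used here. Per the labels, about 6000 cells were loaded and 3000 targeted, fewer than the 11083 db/db and 10308 WT barcodes. Doublets were not called. Alternatives left out the 8% of members with the most UMIs, or members with markers of another class.

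Members, lists and the named genes were chosen with earlier results of these data known. UMIs were summed over members of a library and scaled to counts per 1e6 (CPM). Log2 ratios are db/db over WT, with a count of 0 set to 3 UMIs per library. Ratios have exact conditional binomial intervals and shares exact Clopper-Pearson intervals, which leave out differences between mice. Genes with at least 50 UMIs over both libraries count as measured.

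The named genes are the rule's genes and markers, the type genes, the 12 highest and 12 lowest by the interval bound nearest 0, and up to 5 members of each list. A ranked gene needed a level in its higher library of 0.5 times or more its level in that library's kept cells. The ranking left out rod markers, haemoglobin, ribosomal protein and mitochondrial genes, Gm and Rik models, Xist, Tsix and Y-linked genes. The ranking was repeated in unmixed members. Genes named for the Sox6, Cnmd and Igfn1 groups were chosen after their values were seen. A few genes that this rule names are not reported here.

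Positions are from GENCODE M21 (GRCm38), which held 32235 of 32285 gene identifiers. The sums and intervals were tested on simulated counts. Python 3.11.15, numpy 2.4.6, scipy 1.17.1 and pandas 2.3.3 were used.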

Additional observations from a re-analysis of the deposited data

Results flagged for a closer look

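Marcks, which encodes an actin-binding substrate of protein kinase C, differed in opposite directions in 2 bipolar classes. In ON cone bipolar cells it had 12 UMIs in db/db and 50 in WT, a log2 ratio of -1.41 (-2.45 to -0.48). In OFF cone bipolar cells it had 59 UMIs in db/db and 25 in WT, a log2 ratio of 1.02 (0.32 to 1.75). With 1 library per genotype the difference between the classes was not tested. In unmixed ON cone bipolar cells it had 5 UMIs in db/db and 19 in WT, a log2 ratio of -1.44 with an interval of -3.22 to 0.03, and without the 8% of members with the most UMIs the ratio was -0.22.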

How the results depend on the processing

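Of the alternative values computed, 3423 stayed within counting error or, for counts of genes, close to the value reported, 178 moved further and 8 reversed. The share ratio of 0.667 was 0.924 among rule-defined bipolar cells. The 24 higher genes became 11 after thinning, 47 with equal weight per cell, 50 with free RNA subtracted, 151 with a minimum of 20 UMIs and 1 with a minimum of 200. The 89 lower genes became 34 without the 8% of members with the most UMIs, 11 after thinning, 311 and 9 with the minima of 20 and 200, 52 without members over 10 Pcp2 UMIs and 26 in unmixed members. The median of the ON cascade was -0.066 without the members with the most UMIs, -0.062 after thinning, -0.047 with free RNA subtracted and -0.062 in unmixed members. That of immediate early genes was -2.20 with exclusion sums of 0, -0.21 without the members with the most UMIs and -0.31 in unmixed members. That of nuclear-encoded respiratory genes was -0.072 with the ON sum scaled to depth, -0.065 after thinning, -0.088 with equal weight and -0.059 in unmixed members. That of ribosomal protein genes was -0.076 with exclusion sums of 0 and -0.072 with equal weight. Reversed ratios were Kdr 0.48, Btg2 0.20 and Prdx6 0.48 in unmixed members, Btg2 0.23 and Ftl1 0.011 without the members with the most UMIs, Pcp2 -0.13 with equal weight, and Calr 0.086 and Idi1 0.46 after thinning. Kdr had 4 UMIs over all db/db members, so its reversed ratio rests on few UMIs. The cause of these changes was not tested, other than that the minima change how many genes are counted. Subtracting free RNA took 24.7% of db/db and 32.3% of WT UMIs. The alternatives on Pcp2 and on unmixed members were chosen after seeing the data. No paired analysis was possible because each genotype had 1 library.

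Few cells and UMIs limit the precision: 20 of the 24 higher and 58 of the 89 lower genes had under 100 UMIs. ON types other than those of the Sox6, Cnmd and Igfn1 groups were not followed. The 2 mice of a genotype share a library, so differences between mice, dissociations and libraries cannot be told apart from genotype.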

Other observations

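Cck and Vsx1, which met in many members, were also counted in rod bipolar cells. Cck had 29 UMIs in 5 db/db and 4 UMIs in 3 WT rod bipolar cells, a log2 ratio of 3.53 (2.02 to 5.50). A single db/db cell held 11 of them. Vsx1 had 13 UMIs in 5 db/db cells and 4 UMIs in 1 WT cell of that class. In OFF cone bipolar cells Cck had 0 UMIs in both libraries, and Vsx1 had 0 in db/db and 9 in WT. These values were picked out after they were seen.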
